A study of Rattus norvegicus with 4 samples.

Results

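The Trem2 or Gdf15 macrophages described here are cells of a rat peripheral nerve data set that carried C1q transcripts and at least as much of Trem2 and Gdf15 as of the resident receptors Mrc1 and Cd163. They were chosen by their measured counts of these genes among the cell barcodes of 1 library, library 1. A barcode had to show at least 500 genes, at most 20% mitochondrial counts and at least 10 C1qa, C1qb and C1qc counts per 10000. It also had to hold at least 2 Trem2 and Gdf15 counts, and no fewer of these than of Mrc1 and Cd163. Of the 9828 barcodes of library 1 that passed the gene and mitochondrial limits, 607 met the rule, which is 6.18% (95% interval 5.71% to 6.67%). They made up 33.3% of the 1823 C1q-positive cells of that library, and the whole series held 41444 barcodes. The other 1216 C1q-positive cells and 7411 non-macrophage barcodes (under 2 C1q counts per 10000) of library 1 are the cells they were compared with.

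The study profiled single cells from the sciatic nerve and from the dorsal root ganglia, the sensory ganglia along the spinal cord, of Sprague Dawley rats. There were 4 groups with 1 library each, labelled P1-SN, Adult-SN, P1-DRG and Adult-DRG. P1-SN and P1-DRG came from sciatic nerve and ganglia at postnatal day 1, Adult-SN and Adult-DRG from the same tissues at 8 weeks. Every group was of the same strain, sex was not determined, and no agent or mutation was given. The series title asks how Schwann cells differ between ganglion and nerve, and the growth protocol describes Schwann cells in primary culture with serum. Whether these cells were in culture before capture, and how many animals gave a library, is not stated in the labels.

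Each barcode ends in a number from 1 to 4, and no label ties that number to a group. Libraries are therefore numbered 1 to 4 here, with tissue and age unknown. With 1 library for each group, cells are not replicates, no test was possible and no p-value is given. Intervals are exact 95% intervals and cover counting error only. A count is a unique molecular identifier (UMI), which stands for 1 captured transcript. A level is given as CPM, the summed UMIs of a cell class scaled by its UMI total, and a difference as the log2 ratio of the levels of 2 classes, called where it passed 2-fold. Members held a median of 3471 UMIs per cell, other C1q-positive cells 3854.5 and non-macrophage barcodes 7471, so shares of cells are also given after each cell was thinned to 3000 UMIs. That depth was reached by 404 of the 607 members, 843 other C1q-positive cells and 6714 non-macrophage barcodes.

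Macrophages of peripheral nerve clear debris, present antigen and signal to fibroblasts, Schwann cells and endothelium. TREM2 is a lipid-sensing surface receptor that signals through the adaptor TYROBP and marks macrophages that take up lipid and myelin. GDF15 is a secreted TGF-beta family cytokine made by stressed cells and by macrophages under metabolic or inflammatory stress. MRC1 (the mannose receptor) and CD163 (the haemoglobin scavenger receptor) mark tissue-resident macrophages, often those near vessels.

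The rule genes themselves describe the members and are not findings. Summed over the members there were 1982 Trem2, 1825 Gdf15 and 1919 Mrc1 and Cd163 UMIs. A member held a median of 5 Trem2 and Gdf15 UMIs, with quartiles of 3 and 8 and a highest value of 27, against a median of 3 Mrc1 and Cd163 UMIs. Both genes were detected in 359 members, Trem2 without Gdf15 in 201 and Gdf15 without Trem2 in 47. Most members were not free of the resident receptors, since 548 held at least 1 Mrc1 or Cd163 UMI and 59 held none. The Trem2 level was 760 CPM in the members and 397 CPM in other C1q-positive cells. The Gdf15 level was 700 CPM against 142 CPM.

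Many cells lay close to the border of the rule, which rests on few UMIs per cell. Among the members, 116 had equal counts on both sides of the rule and 73 had exactly 2 Trem2 and Gdf15 UMIs. Just outside it, 103 C1q-positive cells had an Mrc1 and Cd163 sum 1 UMI too high, and 50 cells had 1 Trem2 or Gdf15 UMI and at most 1 Mrc1 or Cd163 UMI. In all, 660 of the 1216 other C1q-positive cells held 2 or more Trem2 and Gdf15 UMIs. Gdf15 was detected in 45.2% of C1q-positive cells with Trem2 and in 34.9% of those without, at median depths of 3698.5 and 3541 UMIs.

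**Figure D1:**
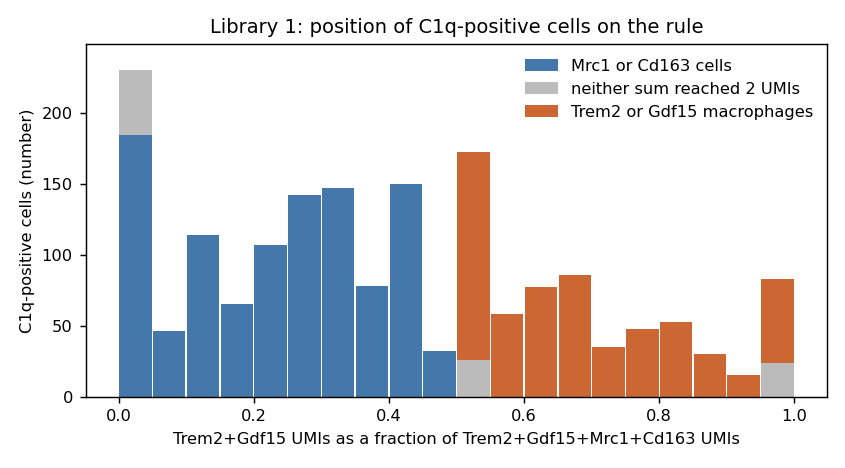
The horizontal axis is the share of Trem2 and Gdf15 among the UMIs of Trem2, Gdf15, Mrc1 and Cd163 in a cell, the vertical axis the number of C1q-positive cells of library 1, and colours give the class. The 607 members lie from 0.5 upwards and the 1065 Mrc1 or Cd163 cells below it, and 55 cells with none of the 4 genes are not drawn.

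General macrophage markers, which the rule did not use, were high in the members. The summed level of 11 general macrophage markers had a median of 296 per 10000 UMIs in the members, 218 in other C1q-positive cells and 0 in non-macrophage barcodes. Such a sum gives most weight to abundant genes such as Lyz2. Gene by gene, the list's median log2 ratio against other C1q-positive cells was -0.02, and its sign turned in 9 of 15 alternative settings. Against non-macrophage barcodes, all 11 were more than 2-fold higher, with a median log2 ratio of 4.85. Csf1r, the receptor for macrophage colony-stimulating factor, stood at 818 against 8.81 CPM. Adgre1, which encodes the macrophage surface protein F4/80, stood at 306 against 4.28 CPM. Lyz2, which encodes lysozyme, stood at 15714 against 545 CPM, and the chemokine gene Cxcl2 at 4332 against 46.2 CPM. In this comparison 18.6% of 13144 genes were more than 2-fold higher in the members and 19.6% more than 2-fold lower.

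Markers of other cells were sparse in the members, apart from those of fibroblasts. T or NK cell, B cell and neutrophil marker lists each had a summed median of 0 per 10000 and were also 0 at the 95th percentile of members. The same held in other C1q-positive cells and non-macrophage barcodes, so these values do not set the members apart. Cd3e, Cd3d and Cd3g of T cells, Ms4a1 and Pax5 of B cells, and Cxcr2 and Mmp8 of neutrophils had no UMI in any member, and in all 8 of 11, 6 of 7 and 6 of 10 genes of the T or NK, B and neutrophil lists were at 0. Endothelial, mural, Schwann cell, perineurial and dendritic cell lists also had medians of 0. In non-macrophage barcodes their medians were 0 as well, except for the perineurial list at 1.78. The fibroblast list had a median of 21.1 per 10000 in members, 23.2 in other C1q-positive cells and 920 in non-macrophage barcodes, and reached 704 at the 95th percentile of members. Type I and III collagen transcripts were at 100 per 10000 or more in 64 members (10.5%) and in 130 other C1q-positive cells (10.7%). A doublet caller marked 56 members (9.23%), 109 other C1q-positive cells (8.96%) and 395 of all 9828 kept barcodes (4.02%). Of the members' barcode sequences, 4 were also kept in another library, and none of these met the rule there.

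The genes that set the members furthest apart from non-macrophage barcodes were those of macrophages in general. Ltc4s, the synthase of the lipid mediator leukotriene C4, was at 235 against 0.660 CPM (log2 8.47, 95% interval 8.02 to 8.97). Ms4a7, a membrane protein of tissue macrophages, was at 166 against 0.499 CPM (log2 8.38). Pf4, the chemokine platelet factor 4, was at 681 against 3.08 CPM. Aoah, which inactivates bacterial lipopolysaccharide, the receptor gene Lilra5, the peptide transporter gene Slc15a2, the scavenger receptor gene Msr1, the IgM receptor gene Fcmr, F13a1 and Folr2 completed the highest 10, with log2 ratios between 7.23 and 8.41. Of 14 resident macrophage genes measured, 12 were more than 2-fold higher than in non-macrophage barcodes, with a median log2 ratio of 5.21. The lowest were Ucma, a cartilage matrix protein gene, at 13.4 against 233 CPM, and Fmod, which encodes the collagen-binding fibromodulin, at 7.29 against 115 CPM. Tekt3, G0s2 and Usp13 followed, at 2, 7 and 3 UMIs in all members together, with intervals of the log2 ratio from -7.46 to -2.55, -4.97 to -2.61 and -5.93 to -2.10.

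Within the C1q-positive cells a smaller share of genes passed 2-fold, and more were lower than higher in the members. Of 8847 genes, 93 were more than 2-fold higher in the members (1.05%) and 506 more than 2-fold lower (5.72%), with a median log2 ratio of -0.07. Because the same cells' counts chose the members, these ratios are a description and support nothing further. The comparison with the 1065 cells that had more Mrc1 and Cd163 gave 123 higher genes (1.43% of 8616) and 543 lower ones (6.3%). A gene entered with at least 20 UMIs on 1 side. Members pooled 2.61e+06 UMIs, other C1q-positive cells 5.38e+06 and the 1065 cells 4.78e+06. Genes of few UMIs could thus enter through the larger pool, where they were high. Against other C1q-positive cells, a minimum of 5 UMIs gave 362 higher and 661 lower genes, and a minimum of 100 gave 24 and 164. Beyond these counts, the part of this filter in the balance of higher and lower genes was not tested.

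The genes with the highest ratios had varied roles. Bcar3, an adaptor of integrin signalling, led at 39.1 against 11.5 CPM (log2 1.76, 95% interval 1.29 to 2.24). Rab20, a small GTPase of endosomes and phagosomes, was at 132 against 49.0 CPM, and after thinning it was detected in 27.7% of members, 12.7% of other C1q-positive cells and 5.17% of non-macrophage barcodes (33.4%, 16.4% and 11.9% before). Slc2a1, the glucose transporter GLUT1, was at 80.9 against 31.6 CPM, and Slc7a5, a large neutral amino acid transporter, at 30.7 against 13.7 CPM. Clec7a, the fungal glucan receptor dectin-1, was at 97.0 against 46.4 CPM. Basp1, a membrane-associated signalling protein, had the highest level of the genes named by size, at 451 against 205 CPM. Cd40, the receptor through which T cells activate antigen-presenting cells, was at 77.5 against 36.0 CPM, and C3, the central complement component, at 89.3 against 37.7 CPM. Arl5c, Ggta1, Orai2, Gngt2, Snn, Gpr132, Trim44, Anxa3, Slc11a2 and Cdc14a had log2 ratios between 1.06 and 1.32.

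Genes lower in the members led in size of difference. C6, a component of the complement membrane attack complex, was at 23.8 against 191 CPM (log2 -3.01, 95% interval -3.40 to -2.64). Hpse, which encodes the heparan sulphate-cleaving heparanase, was at 7.29 against 56.5 CPM. Fcna, a lectin that starts the lectin pathway of complement, was the most abundant of them at 564 against 2898 CPM (log2 -2.36, 95% interval -2.44 to -2.28). After thinning, Fcna was detected in 37.6% of members, 67.6% of other C1q-positive cells and 2.46% of non-macrophage barcodes, and before thinning in 44.2%, 65.5% and 5.57%. Trem1, an activating receptor of myeloid cells, was at 6.52 against 40.7 CPM. Rnase2, Crabp2, the lectin gene Cd209f, Gcnt1, Prkcz and Erbb3 had log2 ratios between -2.61 and -2.31. Erbb3 is also a Schwann cell marker and Crabp2 a perineurial one, and so is Slc2a1 among the higher genes. The Schwann cell list summed to 165 CPM in members and 169 CPM in other C1q-positive cells, and the perineurial list to 247 and 226 CPM. Their part in these values was not tested. Of these 30 genes, 26 had a value under each of the 15 settings tried, and Snn, Slc7a5, Gpr132 and Trim44 gave none under 1 or 2 of them. Each gene kept its direction wherever it had a value, and all 10 of the lower and 7 of the 20 higher genes stayed past 2-fold there.

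**Figure D2:**
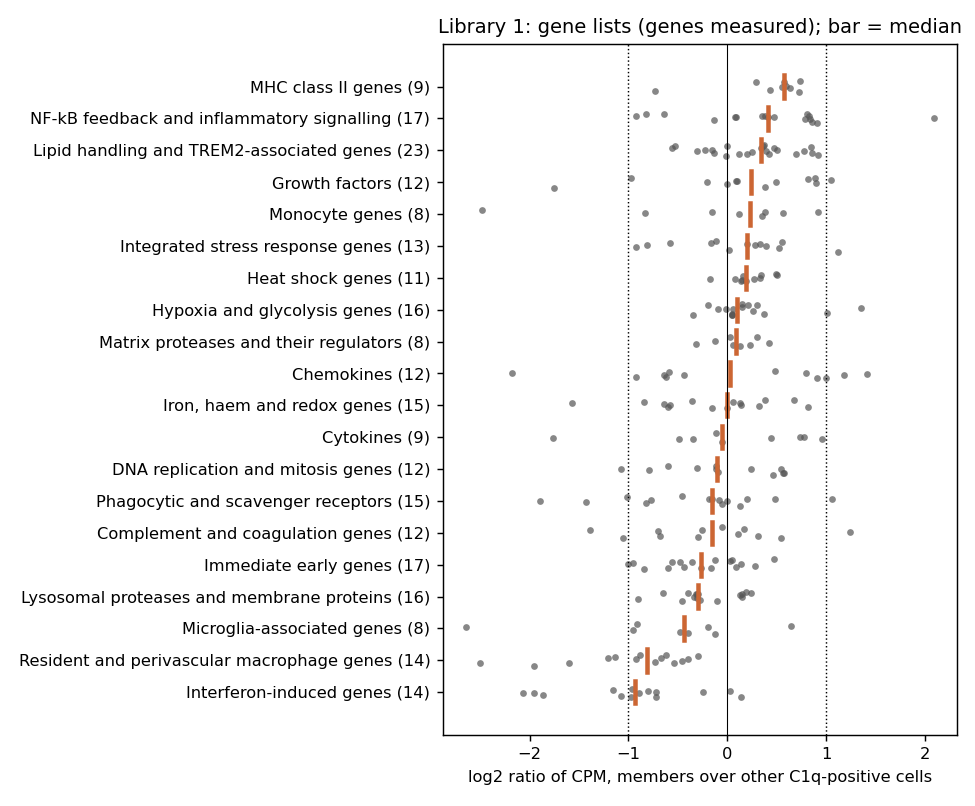
Each point is the log2 ratio of CPM of 1 gene, members over other C1q-positive cells of library 1, the bar is the list's median, the number of genes measured is in brackets, and dotted lines mark 2-fold. Antigen presentation genes had the highest median (0.57) and interferon-induced genes the lowest (-0.93), while the median over all 8847 genes was -0.07.

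Antigen presentation genes had the highest median of the 20 functional lists, and the difference was larger per cell than in the sums. MHC class II molecules show peptides to helper T cells, and Cd74 is their chaperone. Per cell, the list summed to a median of 371 per 10000 UMIs in members, with quartiles of 69.9 and 730. Other C1q-positive cells had a median of 47.0 with quartiles of 3.71 and 567, and non-macrophage barcodes a median of 0.840. The upper quartiles of both macrophage classes thus overlapped widely, while low values were more frequent outside the members. Of 9 genes measured none passed 2-fold either way, and the median log2 ratio of the summed counts was 0.57. Cd74 stood at 14361 against 9491 CPM (log2 0.60), and RT1-Da, an MHC class II alpha chain gene of the rat, at 9657 against 6218 CPM (log2 0.64).

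The share of cells with Cd74 showed the same contrast. After thinning, 88.9% of members (95% interval 85.4% to 91.8%), 58.5% of other C1q-positive cells (55.1% to 61.8%) and 14.9% of non-macrophage barcodes had a Cd74 UMI. Before thinning the shares were 89.3%, 67.7% and 28.9%. High Cd74 was not limited to the members among C1q-positive cells: the 151 cells that met neither the members' rule nor that of the Mrc1 or Cd163 cells had it at 17330 CPM and in 83.3% of cells after thinning (81.5% before). The 1065 Mrc1 or Cd163 cells had it at 8492 CPM and in 57.2% (65.7% before). Cd83, a surface protein of activated antigen-presenting cells, was at 547 against 329 CPM, and the costimulatory ligand gene Cd86 at 89.0 against 53.9 CPM. Ciita, the master regulator of class II genes, had 7 UMIs in members and 24 in the others, too few to separate them. RT1 genes resemble each other, and how reads shared by near-identical copies were counted is not given in the sources used here. Dendritic cell markers, another source of class II transcripts, summed to 108 CPM in members and 99.9 CPM in the other cells, and 4 of the 10 (Zbtb46, Xcr1, Ccr7 and Siglech) had no UMI in any member while 6 had some. Siglech had none in any class of library 1. Their part in the class II values was not tested.

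Chemokine genes split into a higher and a lower group. Cxcl1, Cxcl2 and Cxcl3 encode attractants of neutrophils through the receptor CXCR2. Cxcl2 was at 4332 against 2161 CPM (log2 1.00, 95% interval 0.97 to 1.04), Cxcl1 at 3381 against 1949 CPM (log2 0.79) and Cxcl3 at 104 against 38.8 CPM (log2 1.42, 95% interval 1.15 to 1.68). Cxcl16, a membrane-anchored chemokine that also binds oxidised lipoprotein, was at 204 against 90.1 CPM (log2 1.18). Ccl4 and Ccl3, which attract monocytes and T cells, had log2 ratios of 0.91 and 0.48. The monocyte attractants Ccl2 and Ccl7 were lower, at log2 -0.43 and -0.62, and so was Ccl6 at -0.64. Cxcl10, an interferon-induced attractant of T cells, was at 166 against 251 CPM (log2 -0.59). Of 12 chemokine genes measured, 3 were more than 2-fold higher and 1, Ccl5 with 1 UMI in the members and 28 in the others, more than 2-fold lower, and the list's median log2 ratio was 0.02.

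The chemokine differences were also visible as shares of cells. A Cxcl2 UMI was present in 83.7% of members, 70.6% of other C1q-positive cells and 4.16% of non-macrophage barcodes after thinning, and in 82.5%, 72.5% and 7.03% before. A Cxcl16 UMI was present in 40.1%, 19.6% and 2.26% after thinning, and in 45.8%, 26.4% and 5.75% before. Cxcl3 UMIs came from few cells, 74 members (12.2%) and 93 other C1q-positive cells (7.65%) before thinning. Cxcl1 was not particular to macrophages, since its level in non-macrophage barcodes was 2199 CPM. Cxcl1, Cxcl2 and Cxcl3 resemble each other in sequence, as do Ccl3 and Ccl4, and for them too the counting of shared reads is not given in the sources used here.

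Promoters of Cxcl1, Cxcl2 and Il1rn are shown because they held letters of an NF-kB site and these genes had positive ratios. A window from 250 bases before to 50 bases after each gene's start, 300 bases in all, was searched on both strands for the kB letters GGG, any 2 bases, then TTTCC, which were chosen after the values had been seen. The bases before the start are printed from RefSeq (build GRCr8), read 5′ to 3′ on the gene's strand, with matches in capitals. Cxcl2 lies on the minus strand (chr14:17467256-17467505), as does Cxcl1 (chr14:17479322-17479571), and Il1rn on the plus strand (chr3:27520072-27520321).
Cxcl2: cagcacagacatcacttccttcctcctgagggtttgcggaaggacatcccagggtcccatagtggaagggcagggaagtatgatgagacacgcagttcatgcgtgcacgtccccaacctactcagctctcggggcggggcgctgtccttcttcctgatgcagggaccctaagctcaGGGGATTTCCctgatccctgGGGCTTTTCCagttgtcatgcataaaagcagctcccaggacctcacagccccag
Cxcl1: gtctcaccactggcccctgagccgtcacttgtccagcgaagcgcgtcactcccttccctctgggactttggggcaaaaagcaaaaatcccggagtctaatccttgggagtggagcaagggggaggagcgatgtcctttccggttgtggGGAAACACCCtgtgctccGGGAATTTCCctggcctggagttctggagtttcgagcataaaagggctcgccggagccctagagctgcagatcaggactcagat
Il1rn: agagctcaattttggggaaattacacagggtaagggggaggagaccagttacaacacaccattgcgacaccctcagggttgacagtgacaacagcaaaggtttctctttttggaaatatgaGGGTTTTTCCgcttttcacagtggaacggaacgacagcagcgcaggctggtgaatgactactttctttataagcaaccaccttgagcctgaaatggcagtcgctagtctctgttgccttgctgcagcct
Cxcl2 held 2 matches, Cxcl1 held 2 and Il1rn held 1. Promoters were found for 9 of the 14 chemokine genes, and 2 of the 9, Cxcl1 and Cxcl2, held the letters. Cxcl3, Ccl3 and Ccl4 were not matched to a promoter. Of the cytokine genes 2 of 8 held them, Il1rn and Il6. Of all 33469 promoters, 512 held them (1.53%). For the list of NF-kB genes 6 of 17 did, namely Nfkb1, Nfkb2, Nfkbia, Nfkbiz, Rel and Tnfaip3. Of these, Nfkbiz was lower in the members than in other C1q-positive cells, and Nfkbia was close to level. A match describes letters and does not show that a factor binds there.

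NF-kB subunit and target genes had a median log2 ratio of 0.41 over 17 genes measured. NF-kB is a family of transcription factors that switch on inflammatory genes and their own inhibitors. The subunit genes Nfkb1, Nfkb2 and Rel were at 347 against 198, 93.6 against 49.8 and 150 against 84.1 CPM, with log2 ratios of 0.81, 0.91 and 0.84. Bcl3, a nuclear cofactor of NF-kB, had a log2 ratio of 0.85, and Sod2, a mitochondrial superoxide dismutase induced in inflammation, 0.83. Clec4e, the receptor Mincle for microbial and cell-death lipids, passed 2-fold with 31 UMIs in the members and 15 in the others. The inhibitor gene Nfkbia was close to level (log2 0.09), and Nfkbiz, a further member of the inhibitor family, was lower (log2 -0.65). Nfkb1 was detected in 55.0% of members, 30.4% of other C1q-positive cells and 20.5% of non-macrophage barcodes after thinning, and in 59.0%, 39.7% and 41.3% before.

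Cytokine genes differed in both directions, with a median log2 ratio of -0.06 over 9 genes measured. That median has no settled sign, since it was above 0 in 10 of 15 alternative settings and ran from -0.11 to 0.59 over them. Il1rn, the antagonist of the interleukin-1 receptor, was at 74.8 against 38.4 CPM (log2 0.96, 95% interval 0.67 to 1.25). Il1b itself was at 189 against 139 CPM (log2 0.44), Osm (oncostatin M) at 31.8 against 19.1 CPM and Csf1, the macrophage growth factor, at 33.0 against 19.3 CPM. Il18 was lower at 88.6 against 112 CPM. Tnf had 10 UMIs in all members together, and Il10 had 3 against 21 in the others (95% interval of the log2 ratio -4.15 to -0.02).

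Lipid handling genes often named together with Trem2 were only in part higher. Their median log2 ratio was 0.34 over 23 genes measured, and none passed 2-fold either way. Per cell, the list's sum was lower, with a median of 168 per 10000 UMIs in members. It was 197 in other C1q-positive cells and 217 in Mrc1 or Cd163 cells. Fabp5, a fatty acid-binding protein, was at 415 against 229 CPM (log2 0.86, 95% interval 0.74 to 0.98). Itgax, which encodes the integrin CD11c, was at 63.6 against 35.3 CPM (log2 0.85), Axl, a receptor for apoptotic cells, at 160 against 93.2 CPM (log2 0.78) and Plin2, which coats lipid droplets, at 164 against 102 CPM (log2 0.70). Gpnmb and Lgals3, common markers of lipid-laden macrophages, had log2 ratios of 0.42 and 0.47. Apoe, the main lipid carrier of macrophages, was lower at 11419 against 16521 CPM (log2 -0.53), as was Abca1, a cholesterol exporter (log2 -0.56). Spp1, which encodes osteopontin, had 21 UMIs in the members and 23 in the others. Tyrobp, the adaptor of TREM2, was at 2590 against 2605 CPM.

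Lysosomal genes were on the lower side, with a median log2 ratio of -0.30 over 16 genes measured and none past 2-fold. Ctsb, the cysteine protease cathepsin B, was at 1615 against 3023 CPM (log2 -0.90, 95% interval -0.95 to -0.86). Cd68, a lysosomal membrane protein of macrophages, was at 677 against 932 CPM, and Psap, the precursor of sphingolipid activator proteins, at 1325 against 1678 CPM. Ctsz and Lamp2 were slightly higher, with log2 ratios of 0.24 and 0.19.

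Resident macrophage genes other than Mrc1 and Cd163 were lower in the members for all 14 genes measured, and 5 passed 2-fold. The median log2 ratio was -0.81. F13a1, the A chain of coagulation factor XIII, was at 436 against 1328 CPM (log2 -1.61, 95% interval -1.70 to -1.52). Lyve1, a hyaluronan receptor of perivascular macrophages, was at 738 against 1706 CPM (log2 -1.21), and Ccl24, an attractant of eosinophils, at 110 against 427 CPM (log2 -1.96). Cd209f was at 53.3 against 302 CPM and Selenop, the plasma selenium carrier, at 49.1 against 108 CPM. Folr2 (a folate receptor), Clec10a (a galactose-type lectin) and Pf4 had log2 ratios of -0.89, -0.62 and -0.54. Cfd, the complement protease factor D, which is on none of the lists and was picked after its values were seen, was at 1175 against 4280 CPM. These genes were not lost from the members, which still had F13a1 in 54.4% and Lyve1 in 79.7% of cells before thinning (46.0% and 75.2% after), against 1.81% and 6.34% of non-macrophage barcodes.

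Phagocytic, complement and microglia-associated lists had medians of -0.15, -0.15 and -0.44. Among scavenger and phagocytic receptors Clec7a was more than 2-fold higher and Siglec1, Colec12 and Scarf1 more than 2-fold lower, of 15 measured, though Scarf1 had 3 UMIs in the members (95% interval of the log2 ratio -4.27 to -0.17). Siglec1, which binds sialylated particles, was at 22.6 against 60.9 CPM. Mertk, a receptor for apoptotic cells, was at 19.2 against 33.8 CPM. Among complement and coagulation genes C3 was past 2-fold higher, and Cfp (properdin, at 105 against 276 CPM) and C3ar1 past 2-fold lower, of 12 measured. Csf1r and Aif1, which microglia share with other macrophages, had log2 ratios of -0.40 and -0.48, and the microglial receptor gene P2ry12 had 16 UMIs in the members.

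Interferon-induced genes had the lowest median of the functional lists, -0.93 over 14 genes measured, and 5 passed 2-fold lower. These genes are switched on by interferons through STAT and IRF transcription factors. Ifit3, an antiviral gene, had 22 UMIs in the members and 166 in the others (log2 -1.87, 95% interval -2.58 to -1.22). Mx1, an antiviral GTPase, was at 20.3 against 42.7 CPM, and Usp18, which shuts off interferon signalling, at 4.60 against 17.8 CPM. Isg15, a ubiquitin-like protein, was at 23.0 against 44.9 CPM, and Irf7, the amplifying transcription factor, at 6.90 against 12.1 CPM. Gbp2 and Oasl were level, with log2 ratios of 0.03 and 0.14. Levels were low in both classes: Isg15 was detected in 4.70% of members, 8.78% of other C1q-positive cells and 6.33% of non-macrophage barcodes after thinning, so that the members' share was at or below this background (6.10%, 8.96% and 12.2% before).

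The promoters of Ifit3 and Irf7 are shown because the interferon list was the lowest and its genes are read through a common element. The letters of that element (TTTC, any 2 bases, TTTC), also chosen after the values had been seen, are in capitals in the RefSeq sequence (GRCr8) of Ifit3 on the plus strand (chr1:241527076-241527325) and of Irf7 on the minus strand (chr1:205800024-205800273).
Ifit3: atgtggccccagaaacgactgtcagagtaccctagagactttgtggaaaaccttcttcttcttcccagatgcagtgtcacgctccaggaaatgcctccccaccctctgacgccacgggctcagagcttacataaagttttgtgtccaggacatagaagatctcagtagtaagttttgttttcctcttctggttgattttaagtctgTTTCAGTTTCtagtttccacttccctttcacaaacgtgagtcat
Irf7: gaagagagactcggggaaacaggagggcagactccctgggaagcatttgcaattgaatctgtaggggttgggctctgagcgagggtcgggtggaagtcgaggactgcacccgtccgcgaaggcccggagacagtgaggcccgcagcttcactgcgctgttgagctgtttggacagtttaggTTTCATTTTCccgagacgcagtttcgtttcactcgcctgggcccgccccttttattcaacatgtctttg
The letters were present on either strand in 5 of the 10 interferon-list promoters found (Gbp2, Ifi27, Ifit3, Irf7 and Rsad2) and in 1312 of all 33469 windows of 300 bases (3.92%). Gbp2, which was level between the classes, held them as well as Ifit3.

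Stress, metabolic and proliferation genes showed smaller contrasts. Integrated stress response genes, among which Gdf15 is usually counted, had a median log2 ratio of 0.20 over 13 genes, which turned to -0.09 in cells with collagen under 10 per 10000. Atf4, the central transcription factor of that response, was at 1503 against 1146 CPM (log2 0.39), while its partners Ddit3 and Atf3 were at log2 0.01 and -0.17. Slc7a11, the cystine transporter, passed 2-fold with 42 UMIs against 40 over a larger number of cells. The endoplasmic reticulum chaperone gene Hspa5 was at 1997 against 1417 CPM (log2 0.50), and the heat shock list had a median of 0.19. Immediate early genes had a median of -0.26, with Egr1 at 230 against 445 CPM and Btg2 at 232 against 464 CPM. Of 16 hypoxia and glycolysis genes only Slc2a1 and Pkm (pyruvate kinase, at 28.0 against 13.9 CPM) passed 2-fold. Hmox1, which degrades haem, was at 1579 against 991 CPM (log2 0.67), whereas Blvrb, which acts downstream of it, was at 87.0 against 258 CPM (log2 -1.57). The monocyte list had a median of 0.23 over 8 genes, which went both ways, and the median turned to -0.16 with collagen under 100 per 10000. Its transcription factor gene Cebpb and Lyz2 had log2 ratios of 0.92 and 0.56, S100a4, a calcium-binding protein gene, -0.83, and S100a9 had 4 UMIs in the members and 46 in the others. Mitotic transcripts were few, with 40 Mki67 and 18 Top2a UMIs in the members, and the proliferation list had a median of -0.10.

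Levels are also given along the balance of the rule genes. C1q-positive cells with at least 4 UMIs of the 4 rule genes were split into 5 bins by the Trem2 and Gdf15 fraction, with 162, 286, 509, 376 and 168 cells and bin limits chosen after the data had been seen. The bins use the counts that chose the members, and few UMIs per cell blur the fraction, so their order does not tell a gradient from separate classes. F13a1 was at 2049, 1793, 1292, 542 and 256 CPM from the lowest to the highest bin, and Lyve1 at 2480, 2040, 1763, 882 and 507 CPM. Fcna was at 4184 and 4195 CPM in the first 2 bins and at 214 CPM in the last. Fcna was thus level over the first 2 bins and lower in each bin after them.

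Genes higher in the members ran the other way. Cd74 was at 6297, 4929, 9538, 13650 and 15777 CPM, and Cxcl16 at 53.7, 72.7, 110, 194 and 235 CPM. Clec7a was at 18.9 CPM in the first bin and 108 CPM in the last, and Fabp5 at 138 and 574 CPM. Cxcl2 was at 1359 CPM in the first bin and 4957 CPM in the last. Cd74 and Fabp5 were lowest in the second bin. Apoe did not follow the order, being highest in the middle bin at 19963 CPM and lowest in the last at 8258 CPM. Median depth was 4064.5, 4369.5, 3845, 3481 and 3501.5 UMIs in the bins.

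**Figure D3:**
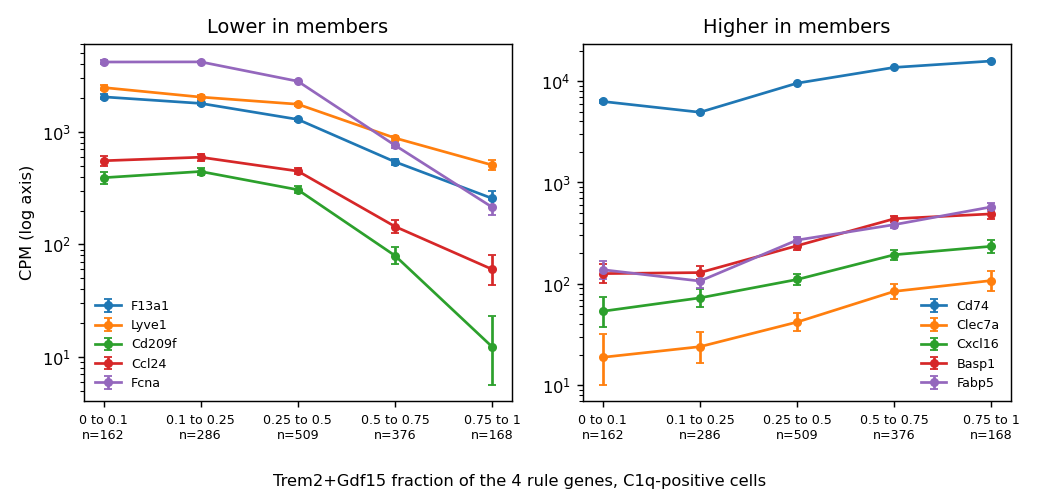
CPM on a log axis in 5 bins of C1q-positive cells of library 1, ordered by the Trem2 and Gdf15 fraction, with n cells for each bin and 95% Poisson intervals. The 10 genes were picked after their values were seen: F13a1 declines from 2049 to 256 CPM, and Cd74 is at 6297 CPM in the first bin and 15777 CPM in the last.

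The members that carried Trem2 without Gdf15 (201 cells) were also compared with those with Gdf15 without Trem2 (47 cells). Of 4184 genes, 454 were more than 2-fold higher in the Trem2-only cells (10.9%) and 180 more than 2-fold lower (4.3%), with a median log2 ratio of 0.14. Trem2-only cells pooled 800922 UMIs and Gdf15-only cells 246724, so genes of few UMIs could enter through the former. The balance depended on the minimum set, with 40 higher and 45 lower at 100 UMIs and 454 and 544 at 5 UMIs. Trem2-only cells had more of both general macrophage markers (median log2 ratio 0.63 over 11 genes, 3 past 2-fold) and resident genes (0.54 over 13, 6 past 2-fold), and their median C1q was 166 against 112 per 10000 UMIs. Over 13 alternative settings the general macrophage median ran from 0.14 to 0.69, and the resident median from 0.41 to 1.11. Among resident genes F13a1 was at 629 against 195 CPM, Folr2 at 945 against 349 CPM and Lyve1 at 963 against 393 CPM. They also had more Apoe, at 14194 against 5678 CPM, more Ccl24, at 197 against 40.5 CPM, and more Cfd, at 2235 against 543 CPM. Fcna was at 1167 against 308 CPM (log2 1.92, 95% interval 1.58 to 2.28). Ltc4s, the phosphatase gene Dusp6 and Alox5, the 5-lipoxygenase of leukotriene synthesis, were also among the highest 20, at log2 1.83, 2.37 and 2.30. Ch25h, Selenop and Anxa3 were among the highest 4 but rested on 3 or fewer UMIs in the Gdf15-only cells, and the intervals of their log2 ratios ran from 1.22 to 5.14, 1.29 to 6.29 and 1.60 to 9.46.

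Gdf15-only cells had more of the neutrophil attractants Cxcl1, Cxcl2 and Cxcl3, although the median of the chemokine list changed sign on thinning. Its median was -0.71 over 11 genes, and 0.60 over 9 after thinning. Cxcl1 was at 4681 CPM in them and 1339 CPM in Trem2-only cells (log2 -1.81), and Cxcl2 at 4714 against 2084 CPM (log2 -1.18). Thinned, the levels were 4578 against 1736 CPM for Cxcl1 and 5324 against 2306 CPM for Cxcl2. Cxcl3 was at 138 against 36.2 CPM (log2 -1.93), from 6 Gdf15-only and 9 Trem2-only cells. Fabp5 was at 563 against 196 CPM (log2 -1.52). Ptgs2, the inducible cyclooxygenase, had 120 UMIs in them and 28 in Trem2-only cells (log2 -3.80), from 7 of the 47 cells. In the 359 cells with both genes Cxcl2 was at 5426 CPM, so that both classes with Gdf15 were above the Trem2-only class for this gene. Called doublets were 13 of the 47 Gdf15-only and 13 of the 201 Trem2-only cells. No value without them was computed for Cxcl1, Cxcl2 or Fabp5 in this contrast. Class II genes had a median log2 ratio of 0.35 over 7 genes and none past 2-fold, which turned to -0.26 with called doublets removed, with RT1-Da at 9121 CPM in Trem2-only and 8747 CPM in Gdf15-only cells.

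The Gdf15-only cells also carried more fibroblast transcripts. Col1a1 was at 22341 CPM in them against 10960 CPM, Dcn at 11235 against 3893 CPM and Apod, abundant in fibroblasts, at 18888 against 3168 CPM. Collagen transcripts reached 100 per 10000 in 13 of the 47 Gdf15-only cells (27.7%) and in 14 of the 201 Trem2-only cells (6.97%), and called doublets numbered 13 (27.7%) and 13 (6.47%). With called doublets removed, Apod turned to 0.89 and the median of the fibroblast list, -1.03 over all cells, to 1.88. Cthrc1, a matrix protein gene, turned from -2.30 to 0.65. Cxcl3 kept its direction at -1.04, and Ccl24 and Fcna theirs at 2.35 and 1.73. The 6 genes Ptgs2, Sod3, Itm2a, Gpx7, Mdk and Efemp1 then had under 20 UMIs on both sides and gave no value. The Schwann cell list summed to 345 CPM in the Trem2-only and 52.7 CPM in the Gdf15-only cells. Their part in the contrast of these cells was not tested.

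**Figure D4:**
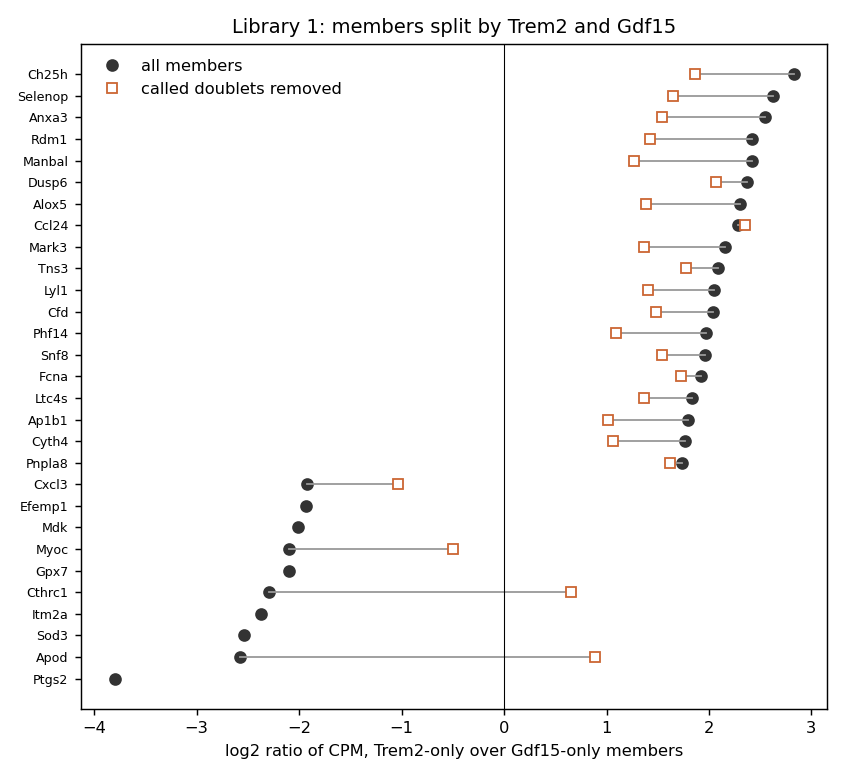
Log2 ratios of CPM of 29 named genes, Trem2-only over Gdf15-only members of library 1, with all members (filled circles) and with called doublets removed (open squares, absent where under 20 UMIs were left on both sides). The 19 genes drawn as higher in Trem2-only cells stay above 0, while Apod and Cthrc1 cross it to 0.89 and 0.65. Those 19 were picked for their high ratios, and many had few UMIs in Gdf15-only cells (Anxa3 1, Pnpla8 6). Their staying above 0 is therefore no check on them.

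The same rule was applied to the other libraries, which it had not been set on. In library 2 it took 91 of 186 C1q-positive cells (48.9%, 95% interval 41.5% to 56.3%), in library 3 it took 7 of 129 (5.43%, 2.21% to 10.9%) and in library 4 it took 1 of 170 (0.588%, 0.0149% to 3.23%). Only library 2 had enough cells for a contrast with other C1q-positive cells. There, 5.2% of 2578 genes were more than 2-fold higher in the rule's cells and 1.36% more than 2-fold lower. Against its 50 Mrc1 or Cd163 cells, 8.32% of 2525 genes were higher and 0.752% lower. Depth differed more than in library 1, with medians of 3072 and 2269 UMIs. The rule's cells were the larger pool there, with 380285 UMIs against 264205 in other C1q-positive cells and 174155 in Mrc1 or Cd163 cells. In both libraries more genes were called as higher in the larger pool of these contrasts. Whether the minimum of UMIs for a gene gave this was not tested.

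Gene by gene, signs in library 2 often differed from those in library 1. Against other C1q-positive cells, 1280 of 2496 genes measured in both had the same sign (51.3%), and against Mrc1 or Cd163 cells 1315 of 2444 (53.8%). Of the genes more than 2-fold higher in library 1 and measured in library 2, 8 of 15 were also above 0 in the former contrast and 12 of 19 in the latter. Of those more than 2-fold lower, 15 of 48 and 26 of 60 were below 0. In the former contrast, the sign was the same for 57.9% of all 1172 genes above 0 in library 1. It was the same for 45.4% of all 1324 genes below 0. Most of these signs were not settled by the counts of library 2. In the contrast with other C1q-positive cells, its interval excluded 0 for 331 of the 2496 genes. It did so for 7 of the 15 higher and 17 of the 48 lower genes. These counts take either direction and are not counts of the same sign. Slc2a1 was higher in both libraries, in library 2 at 147 against 30.3 CPM (log2 2.28, 95% interval 1.21 to 3.56). Anxa3 was also higher in both, at 163 against 98.4 CPM. Cxcl3 went the other way at 15.8 against 129 CPM (log2 -3.03, 95% interval -4.57 to -1.76), as did Basp1 at 373 against 549 CPM and Fcna at 181 against 83.3 CPM. Cd209f and Rnase2 had no UMI in either class of library 2.

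The gene lists in library 2 depended on the cells compared with. Cells that met neither rule were 45 of the 95 other C1q-positive cells there, against 151 of 1216 in library 1. Against other C1q-positive cells, class II genes had a median log2 ratio of 0.07 over 7 genes, with Cd74 at 5846 against 5583 CPM, and resident genes a median of -0.01 over 11 genes. Against the 50 Mrc1 or Cd163 cells, the class II median was 0.74 over 7 genes, 2 of them past 2-fold, with Cd74 at 5846 against 3669 CPM. Of all 2525 genes in that contrast, 8.32% were more than 2-fold higher and 0.752% more than 2-fold lower. The same contrast of library 1 had a class II median of 0.76. Resident genes in that contrast had a median of -0.33 over 11 genes in library 2, with Lyve1 at 476 against 477 CPM, and -0.92 in library 1. Cxcl2 was higher than in other C1q-positive cells in both libraries, in library 2 at 2837 against 2044 CPM (log2 0.47, 95% interval 0.32 to 0.62), and so was Il1b at 192 against 106 CPM. Only Irf1 and Ifi27 of the interferon list were measured there. Transcripts of other cells also differed between the classes of library 2, where the erythroid list summed to 7968 CPM in the rule's cells and 21037 CPM in the others and the neuron list to 4365 and 6370 CPM. Their part in the difference between the libraries was not tested.

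**Figure D5:**
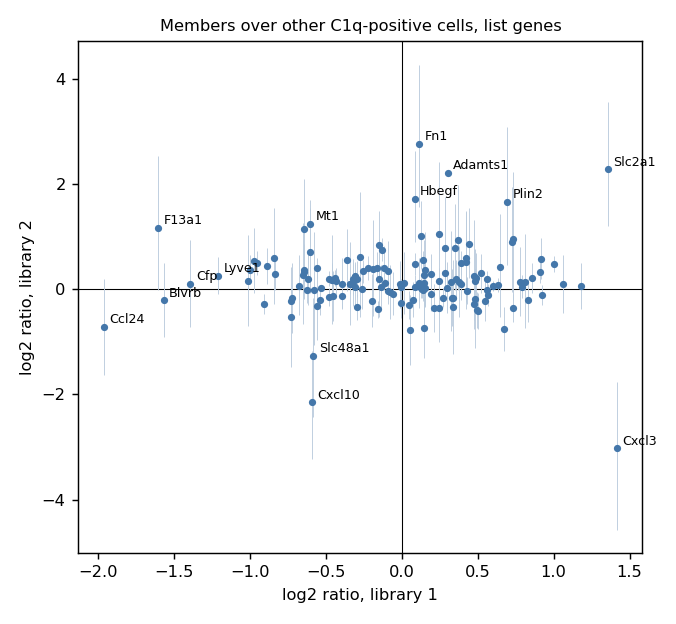
Log2 ratios of 150 list genes measured in both libraries, library 1 on the horizontal and library 2 on the vertical axis, each for cells that met the rule over other C1q-positive cells, with 95% counting intervals for library 2. Of the 150 genes 76 have the same sign in both, with Slc2a1 at the upper right and Cxcl3 at the lower right.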

How the data were processed

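Per the labels, cells were captured with the 10x Genomics 3' v3 chemistry. The authors deposited UMI counts per gene and barcode as 1 matrix of 25399 genes for all 4 libraries, made with Cell Ranger 3.1.0 per the file headers. CASAVA 1.8, Seurat and the build Rnor_6.0 are listed, without a role, per the submitters' processing notes. Promoters were matched by symbol to RefSeq on GRCr8.

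Library 1 held 10542 barcodes, of which 9828 were kept. UMIs were summed over the cells of each class, and the log2 ratio of CPM was taken with a floor of 3 UMIs on each side, for genes with at least 20 UMIs on 1 side. Intervals were exact 95% intervals (Poisson for a level, Clopper-Pearson for a share, the conditional binomial for a ratio) and cover counting error only. Doublets were called with Scrublet in scanpy 1.11.5 and kept, and their removal was tried as an alternative. Sums and intervals were computed with scipy 1.17.1 and numpy 2.4.6 in Python 3.11.15, and figures drawn with matplotlib 3.10.9. Tables used pandas 2.3.3. The ratio and its interval were checked on simulated counts.

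The members, the 20 functional and 16 marker lists (462 genes, 442 found) and the alternatives were chosen with earlier results of these data known. Named genes were, for each contrast, the 20 highest and 10 lowest ratios among genes with at least 50 UMIs over both sides and a UMI in at least 10% of cells on the higher side (10 and 5 against non-macrophage barcodes), without rule, mitochondrial, ribosomal and uncharacterised genes. Genes of the lists could also be named. Of the genes this rule gave, 1 is not reported here. Libraries 3 and 4 gave shares only.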

Additional observations from a re-analysis of the deposited data

How the results depend on the processing

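No paired analysis was possible because each group had 1 library and no barcode number is tied to a group. The main share of 6.18% became 5.65% with at least 1000 genes per barcode, 5.43% with at least 3 Trem2 and Gdf15 UMIs, 19.7% among cells with collagen under 10 per 10000, 5.00% without ties and 5.70% where a Trem2 UMI was required. The collagen limit of 10 lay below the typical level, since 473 of 607 members were above it, so a limit of 100 was added. That limit, leaving out ties and requiring Trem2 were chosen after seeing the data. Counts of genes past 2-fold against other C1q-positive cells (main 93 higher, 506 lower) became 60 higher with a mitochondrial limit of 10%, 154 with collagen under 10, 140 thinned to 3000 UMIs and 362 with a minimum of 5 UMIs. A minimum of 100 UMIs gave 24 higher and 164 lower. Against Mrc1 or Cd163 cells (123 and 543), there were 74 higher with a mitochondrial limit of 10%, 225 with called doublets removed and 427 with a minimum of 5 UMIs, and 36 higher and 180 lower with a minimum of 100.

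Against non-macrophage barcodes (2446 and 2580), collagen under 10 gave 429 higher and 974 lower, and the number higher was 4363 with a minimum of 5 UMIs, 1264 with 100 and 661 with collagen under 100. For Trem2-only over Gdf15-only members (454 and 180), there were 273 lower with each cell weighted equally and 544 with a minimum of 5 UMIs. The numbers higher and lower were 257 and 76 thinned, 40 and 45 with a minimum of 100, and 253 and 107 with collagen under 100. That contrast could not be run with collagen under 10, which left too few cells. Of 116 such counts under the alternatives, 92 stayed within 1.5 times of the main count.

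Of 22 list medians in each contrast, 9 turned in sign under some setting against other C1q-positive cells, 9 against Mrc1 or Cd163 cells, 7 against non-macrophage barcodes and 17 between Trem2-only and Gdf15-only members. Against other C1q-positive cells these were the chemokine (-0.07 to 0.75), cytokine (-0.11 to 0.59), proliferation (-0.21 to 0.14), stress response (-0.09 to 0.30), monocyte (-0.16 to 0.37), iron, matrix protease, fibroblast and general macrophage lists, all with medians within 0.25 of 0. Of medians at least 0.5 from 0, those that turned were, against non-macrophage barcodes with collagen under 10, cytokines (-0.17), class II (-0.60) and the fibroblast list (0.34). Complement genes there turned to -0.36 thinned, -0.13 with a minimum of 100 UMIs and -0.81 with collagen under 100. In Trem2-only over Gdf15-only members, removing called doublets turned monocyte genes (0.16), matrix proteases (1.23), the fibroblast list (1.88), Apod (0.89) and Cthrc1 (0.65). There, collagen under 100 turned the fibroblast list (0.43) and Apod (0.83), thinning turned chemokines (0.60), and a minimum of 5 UMIs turned the microglia list (-0.28). The causes were not tested. Against other C1q-positive cells, class II medians ran from 0.38 to 0.65, resident ones from -0.86 to -0.67 and interferon ones from -1.04 to -0.71. Against non-macrophage barcodes, collagen under 100 shifted the all-gene median from -0.02 to -0.45. With 1 library, depth limits genes under about 20 UMIs, and agreement between cells of 1 library says nothing of other animals.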
